A study of Mus musculus with 59 samples.

Results

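The 43 genes described here encode subunits of glutamate receptors, auxiliary proteins that travel with AMPA receptors, and the scaffold and adhesion proteins that hold receptors at the postsynaptic membrane. They were taken by name from a list of receptor and postsynaptic density genes, which was chosen with earlier results of these data known. All 43 were found among the 51456 genes of the deposited table. The list holds 4 AMPA, 5 NMDA and 5 kainate receptor subunits, 6 metabotropic receptors and 4 AMPA receptor auxiliary subunits. It also holds 4 scaffolds of the membrane-associated guanylate kinase (MAGUK) family, 4 DLGAP scaffolds, 3 SHANK scaffolds, 3 HOMER scaffolds and 5 adhesion proteins.

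Stranded, poly(A)-selected libraries were made from prefrontal cortex taken on postnatal day 25 from mice of the strain C57BL/6J. The labels divide 59 libraries by genotype at Chd8 (mice heterozygous for the allele Chd8-S62X, HT, and wild-type mice, WT), by sex, and by treatment of the pups by way of the dam's milk from day 3 to day 24 (fluoxetine, lithium or vehicle). This gives 12 groups, of which 11 held 5 libraries and 1, the HT-labelled females on fluoxetine, held 4. Chd8 encodes a chromatin remodeller that binds near the start sites of many active genes, fluoxetine is an inhibitor of serotonin reuptake, and lithium, a mood stabiliser, acts on inositol phosphate recycling and glycogen synthase kinase signalling. The labels give no dose and name neither dam, litter nor animal, so the p-values below measure the spread between these libraries. Treatment came by way of the dam, so differences between dams or litters cannot be told apart from those between treatments.

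Glutamate released by one neuron opens AMPA and kainate receptors, which carry fast excitatory current, and NMDA receptors, which admit calcium once the membrane is depolarised. Metabotropic receptors act more slowly through G proteins. TARP and cornichon auxiliary subunits govern the traffic and gating of AMPA receptors, and MAGUK proteins such as PSD-95 anchor receptors to a layered scaffold of DLGAP, SHANK and HOMER proteins beneath the membrane, while neuroligins and leucine-rich repeat proteins bind partners on the presynaptic side. In the cortex most of these proteins sit in the dendritic spines of excitatory neurons.

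Chd8 itself was higher in every HT-labelled library than in any WT-labelled library, from 5115 to 6626 normalized counts (median 5907) against 2828 to 4229 (median 3635). A heterozygous allele that lowers the RNA of its own gene would give the opposite order, so genotypes are named by their labels and each genotype direction below rests on those labels. The deposited values are called normalized counts here because they behave like counts divided by a factor for each library, a unit inferred from the values. They summed to 30.3 to 33.7 M per library, and from the value of a single read the estimated depth was 25.8 to 36.9 M reads. Excitatory neuron markers (Slc17a7, Neurod6, Neurod2, Tbr1) were abundant in every library and summed to between 38492 and 67573 normalized counts. No list of markers particular to prefrontal cortex was used, so the tissue label itself was not tested. Markers of olfactory bulb summed to between 268 and 16156, and 8 libraries stood more than 5 robust SDs above the median of a striatal marker list. These markers are set beside the results they move with.

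All 43 genes were expressed well above the minimum mean of 10 normalized counts that a gene needed to be tested. The lowest mean was that of Homer3 (218) and the highest that of Dlg4, which encodes PSD-95 (28544). Levels of different genes were compared per kilobase of merged exons. On that scale Cnih2, a cornichon subunit of AMPA receptors, led with a mean of 3087 normalized counts per kb, followed by the scaffold genes Dlgap3 (2225) and Dlg4 (2154), the AMPA receptor genes Gria1 (1908) and Gria2 (1739), Shank1 (1801) and Grin1 (1662), which encodes the obligatory NMDA receptor subunit. The lowest per kb were Grm8 (60.5), a presynaptic metabotropic receptor gene, Homer3 (63.3), the kainate receptor gene Grik1 (69.7) and Grin2d (77.0), an NMDA receptor gene.

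**Figure D1:**
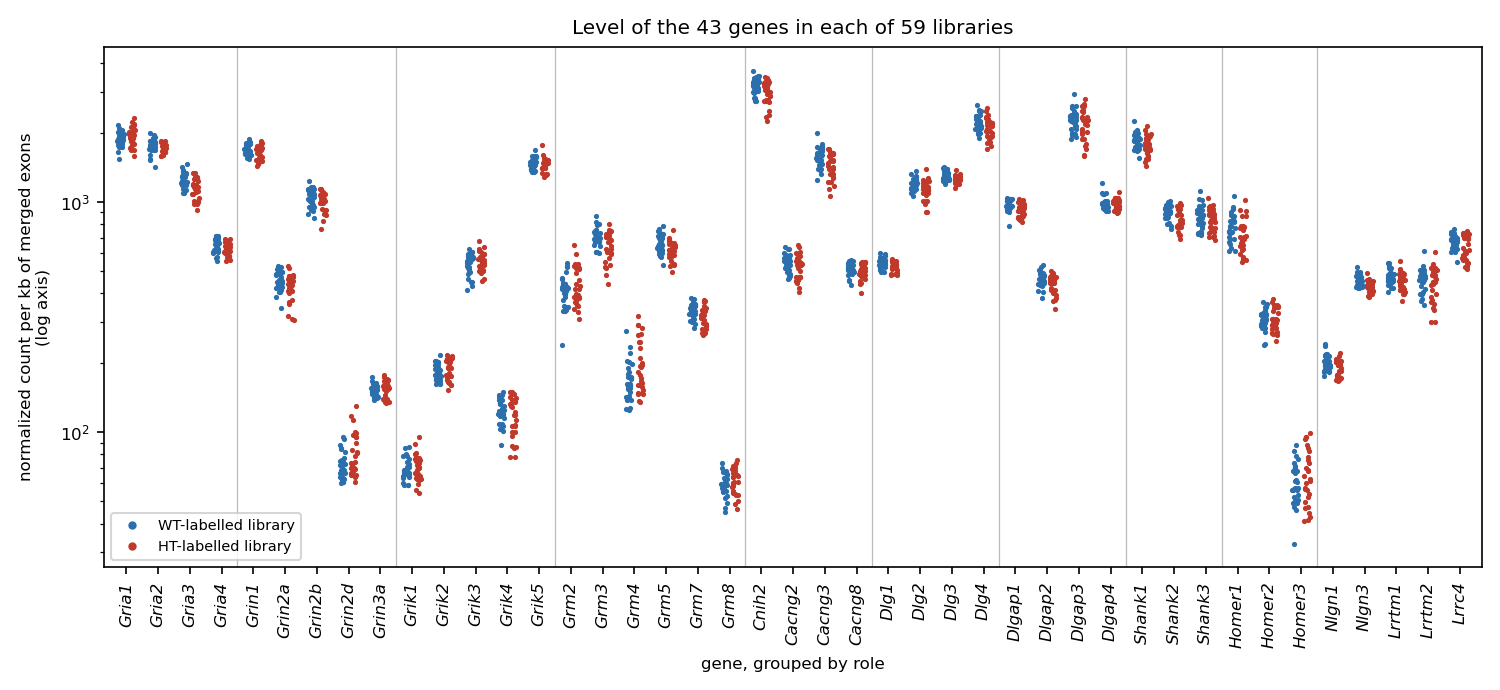
Level of each of the 43 genes in each of the 59 libraries, in normalized counts per kilobase of merged exons on a log axis. Each point is 1 library, blue for WT-labelled and red for HT-labelled, and vertical lines separate the roles; the libraries of both labels overlap for all 43 genes, and Homer3, Grm2 and Grm4 spread most widely.

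The spread between libraries differed between members. The ratio of the highest to the lowest library was 1.23 for Dlg3 and 1.25 for Dlg1, both MAGUK scaffold genes, 1.30 for the AMPA receptor gene Gria4 and 1.32 for Grin1 and Dlgap1. It reached 2.56 for Grm4, a presynaptic metabotropic receptor gene, 2.71 for Grm2, which encodes another presynaptic autoreceptor, and 3.01 for Homer3. Within groups the SD of the log2 level ran from 0.057 for Dlg3 to 0.363 for Homer3.

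The first comparison asked how the members differed between HT-labelled and WT-labelled libraries once treatment and sex were balanced, as the mean of the 6 differences within treatment and sex. A total of 6 members fell in the HT-labelled libraries, by between 3.80 and 9.63%, and none rose. They were the AMPA receptor gene Gria3, the AMPA auxiliary gene Cacng3, the metabotropic receptor gene Grm7, the scaffold genes Dlg3 and Dlgap1, and the adhesion gene Nlgn3. These 6 are 14.0% of the members, beside 7.98% of all 16839 genes tested (1344 genes, 618 higher and 726 lower), at a limma adjusted p under 0.05. With 1 library left out at a time 4 to 11 members were called and 1097 to 1676 of all genes, 10 or 11 members when it was HT-labelled lithium female 1, vehicle female 1 or 2 or vehicle male 1, or WT-labelled vehicle male 5. Without the filter on low values 3 members (6.98%) were called, beside 2.57% of all genes. With the replicate number of the labels as a block 12 members (27.9%) were called, beside 10.9% of all genes. In bulk tissue a smaller number of cells of a type and less RNA per cell cannot be told apart.

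**Figure D2:**
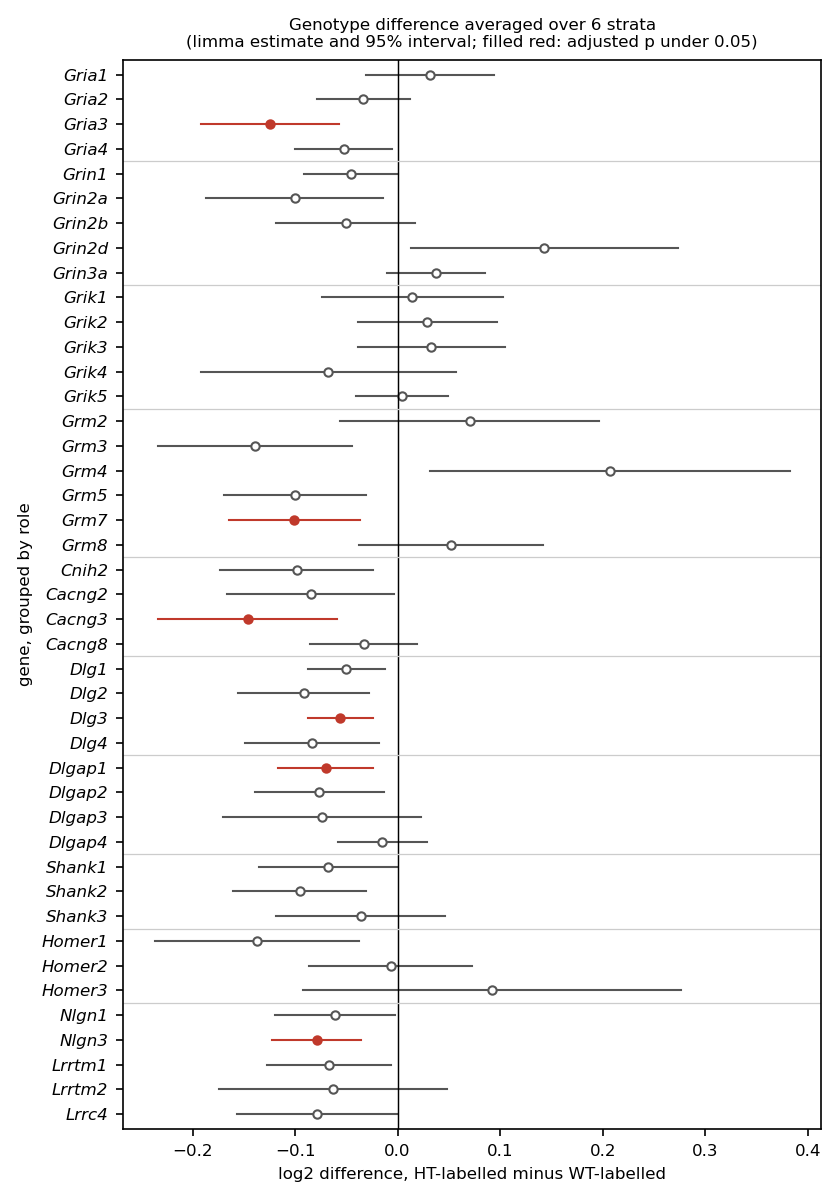
Difference between HT-labelled and WT-labelled libraries for each of the 43 genes, averaged over the 6 treatment and sex strata, on the log2 scale. Points are limma estimates and bars 95% intervals; the 6 filled red points, all below 0, passed an adjusted p of 0.05.

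The list as a whole lay to the low side, given as a description because it was chosen with earlier results of these data known. Its median log2 difference was −0.061, with 32 of 43 members (74.4%) below 0, whereas the median over all genes tested was 0.0016, with 49.2% below 0. Markers of excitatory neurons also lay low (median of 4 genes −0.096) and those of olfactory bulb high (median of 5 genes 0.291), none of them called. With the excitatory neuron markers as a covariate the members' median was −0.031. At an unadjusted p under 0.05 stood 24 members (55.8%, 22 lower and 2 higher), beside 24.1% of all genes, or 13.0% counting lower genes alone. The low side was not shared by every role. All 4 MAGUK, all 4 DLGAP, all 3 SHANK and all 5 adhesion genes, and all 4 AMPA auxiliary genes, had estimates below 0, with medians of −0.070, −0.072, −0.068, −0.067 and −0.092. Of the 5 kainate receptor genes 4 lay above 0, with a median of 0.014 and none at an unadjusted p under 0.05, and the metabotropic receptor genes split 3 above and 3 below.

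Gria3 encodes the GluA3 subunit of AMPA receptors and lies on the X chromosome (ENSMUSG00000001986, plus strand, 41400854 to 41678601 in GRCm38). It ranged from 9101 to 13205 normalized counts (median 11441.5) in the 29 HT-labelled libraries and from 10738 to 14339 (median 12171) in the 30 WT-labelled libraries. The ranges overlapped, but 22 of 29 HT-labelled libraries lay below the WT-labelled median, and the estimate was below 0 in 6 of 6 strata, from −0.21 in vehicle males to −0.066 in lithium females. Such counts, here and below, come from the libraries that gave the calls. Some members not called had the same counts, such as Dlg1 with 22 of 29 libraries and 6 of 6 strata. The averaged log2 difference was −0.12 ± 0.033 (SE, limma adjusted p = 0.0147), a fall of 8.26% with a 95% interval of −12.4 to −3.89%. The other AMPA subunit genes did not pass the test: Gria4 had −0.052 ± 0.024 and Gria2 −0.034 ± 0.023, while Gria1 had 0.032 ± 0.031.

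Nlgn3 encodes neuroligin-3, a postsynaptic adhesion protein that binds neurexins, and is also X-linked (ENSMUSG00000031302, plus strand, 101299168 to 101325963). Its HT-labelled libraries ran from 3588 to 4571 normalized counts (median 4034) and its WT-labelled libraries from 3906 to 4842 (median 4207). In words, the 2 sets overlapped over most of their range, yet 24 of 29 HT-labelled libraries were under the WT-labelled median and all 6 strata had a negative estimate. The averaged difference was −0.079 ± 0.022 (SE, limma adjusted p = 0.0163), and the level fell by 5.33% with an interval of −8.12 to −2.44%. The other adhesion genes lay between −0.078 (Lrrc4, a netrin-G ligand) and −0.061 (Nlgn1), with Lrrtm1 at −0.067 and Lrrtm2 at −0.063, and were not called.

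Dlg3 encodes SAP102, a MAGUK scaffold prominent in young synapses, and is the third X-linked member (ENSMUSG00000000881, plus strand, 100767722 to 100818410). It lay between 6745 and 8018 normalized counts (median 7333) in HT-labelled and between 6958 and 8290.4 (median 7558) in WT-labelled libraries, with 25 of 29 HT-labelled libraries below the WT-labelled median. The difference was the smallest of the 6, −0.056 ± 0.016 (SE, limma adjusted p = 0.0214), and negative in 6 of 6 strata. Of its family, Dlg2, which encodes PSD-93, had −0.091 ± 0.032 (adjusted p = 0.0631) and Dlg1, which encodes SAP97, −0.050 ± 0.019 (adjusted p = 0.0861), both by limma and neither called. Dlg4 had −0.083 ± 0.033.

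Cacng3 encodes the TARP gamma-3 auxiliary subunit of AMPA receptors (ENSMUSG00000066189, chromosome 7, plus strand, 122670492 to 122769393). It ran from 2953 to 4716 normalized counts (median 3991) in HT-labelled libraries and from 3472 to 5509 (median 4442) in WT-labelled libraries. The lowest and highest single libraries differed more than for Gria3 or Dlg3, and 22 of 29 HT-labelled libraries were under the WT-labelled median. Its difference of −0.15 ± 0.044 (SE, limma adjusted p = 0.0280) was the most negative of the 6, 9.63% lower with an interval of −14.9 to −3.98%. The other auxiliary genes had −0.098 (Cnih2), −0.085 (Cacng2, which encodes stargazin) and −0.033 (Cacng8), and none was called.

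Grm7 encodes mGlu7, a presynaptic metabotropic receptor of low glutamate affinity (ENSMUSG00000056755, chromosome 6, plus strand, 110645581 to 111567230). HT-labelled libraries held 1562 to 2196 normalized counts (median 1891) and WT-labelled libraries 1664 to 2243 (median 2018), and 23 of 29 HT-labelled libraries were under the WT-labelled median. The averaged difference was −0.10 ± 0.032 (SE, limma adjusted p = 0.0369). It was carried unevenly: the estimate was −0.22 in vehicle males, −0.11 in vehicle females, −0.093 and −0.12 in fluoxetine males and females, −0.053 in lithium males and 0.00047 in lithium females. The call was lost when any 1 of 20 of the 59 libraries was left out, with an adjusted p of at most 0.0623.

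Dlgap1 encodes a GKAP protein that links PSD-95 to SHANK proteins (ENSMUSG00000003279, chromosome 17, plus strand, 69969073 to 70821413). Its HT-labelled libraries ran from 14658 to 18354 normalized counts (median 16509) and its WT-labelled libraries from 14083 to 18619 (median 17107), so that the single lowest library was WT-labelled. The difference of −0.070 ± 0.023 (SE, limma adjusted p = 0.0491) stood at the edge of the threshold, and leaving out any 1 of 39 of the 59 libraries ended the call (adjusted p up to 0.0808). By contrast Gria3, Nlgn3, Dlg3 and Cacng3 were called in each of the 59 fits that left out 1 library, although Cacng3 lost its call without the filter on low values (adjusted p = 0.0511). With markers of excitatory neurons as a covariate the same 4 were called and Grm7 (adjusted p = 0.0836) and Dlgap1 (0.0806) were not.

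**Figure D3:**
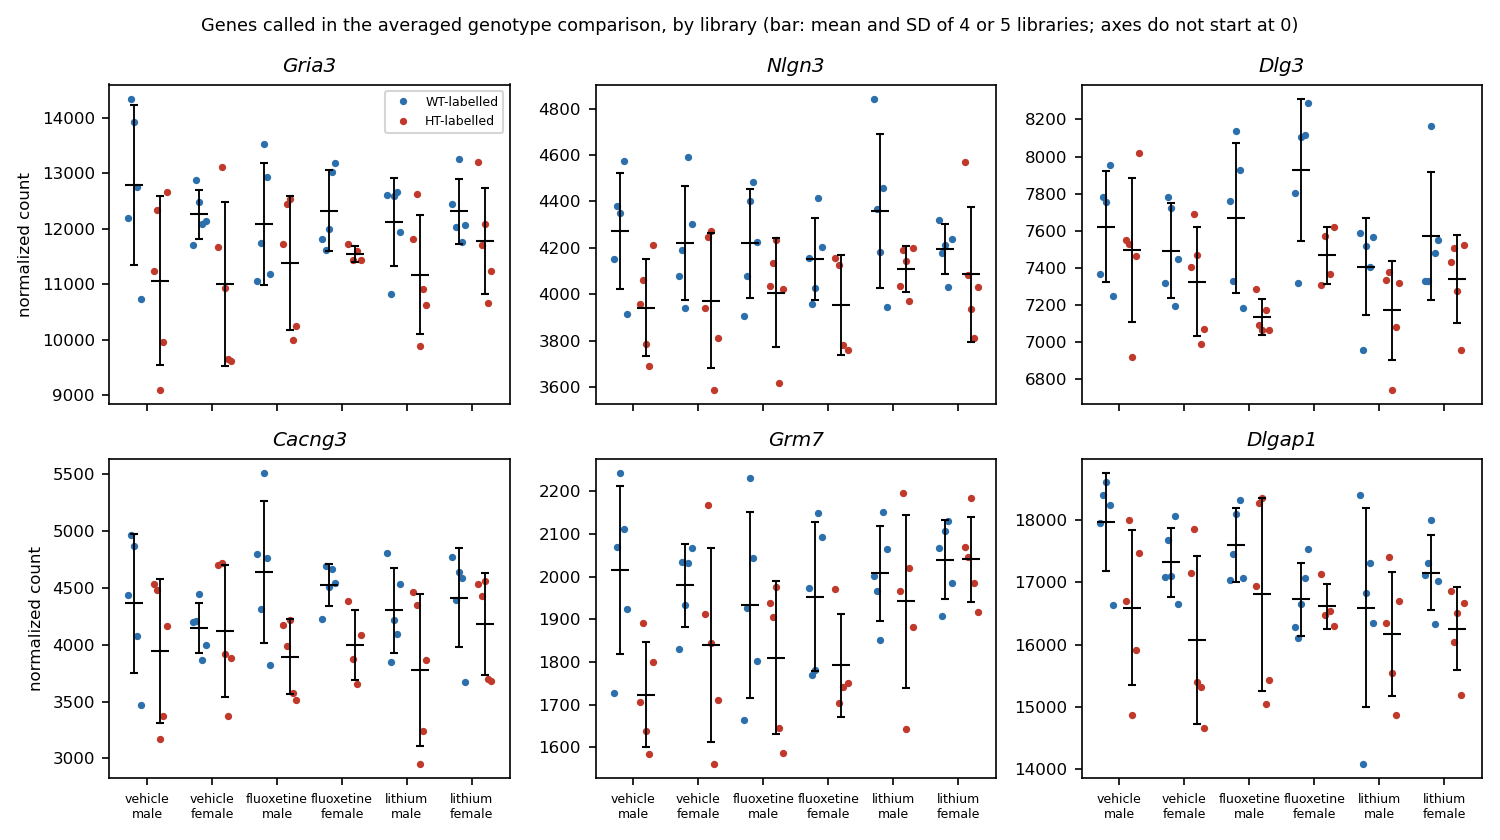
Normalized counts of the 6 members that fell in HT-labelled libraries, by treatment and sex. Each point is 1 library, blue for WT-labelled and red for HT-labelled, and bars give the mean and SD of 4 or 5 libraries; the axes do not start at 0, and within most strata the points of both labels overlap.

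The members next in order of p were not called. Shank2, a scaffold gene at the base of the postsynaptic density, had −0.095 ± 0.032 (limma adjusted p = 0.0540), from 7391 to 10673 normalized counts in HT-labelled and 8193 to 10872 in WT-labelled libraries. Grm3, the gene of mGlu3, which astrocytes and neurons share, had −0.14 ± 0.047 (limma adjusted p = 0.0561). Grm5, the gene of the postsynaptic receptor mGlu5, had −0.10 ± 0.035 (limma adjusted p = 0.0614). Homer1, whose long products tether mGlu5 to SHANK proteins and whose short product is induced by activity, had −0.14 ± 0.050 (limma adjusted p = 0.0751). Each of these 4 estimates was farther from 0 than that of Dlg3 and had a larger standard error.

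Only Grm4 and Grin2d had positive estimates at an unadjusted p under 0.05, and they are named here after their values were seen. Grm4 encodes mGlu4, and its difference was 0.21 ± 0.087 (limma adjusted p = 0.132). It ran from 805 to 1904 normalized counts (median 1095) in HT-labelled and from 745 to 1642 (median 966) in WT-labelled libraries. Grin2d, the gene of the NMDA receptor subunit GluN2D, which is typical of interneurons and of early development, had 0.14 ± 0.065 (limma adjusted p = 0.162). Both followed the olfactory bulb markers described below, and with those markers as a covariate both were called higher, at 0.16 and 0.11.

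Gria3, Nlgn3 and Dlg3 are the only members on the X chromosome, and all 3 were called lower. On that chromosome 50 of 563 genes tested (8.88%) were called lower and 11 (1.95%) higher, whereas over all chromosomes 4.31% were called lower and 3.67% higher. The share called lower was the highest of any chromosome, and the next highest was 6.51%. None of the 3 X-linked members was called between females and males (log2 differences of 0.016 ± 0.033 for Gria3, −0.019 ± 0.022 for Nlgn3 and 0.020 ± 0.016 for Dlg3), and their genotype by sex interactions were 0.032 ± 0.067, 0.024 ± 0.043 and 0.0037 ± 0.032. The X chromosome was singled out after these values were seen.

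Within single treatments no member was called. In vehicle libraries, where 34 genes (0.202%) were called, the members' median was −0.045, with 33 of 43 below 0, and it was −0.077 without HT-labelled vehicle female 1 and −0.031 with excitatory neuron markers as a covariate. The smallest p-values belonged to Gria3 (−0.19 ± 0.057, limma adjusted p = 0.177), Grm7 (−0.17 ± 0.054, adjusted p = 0.222) and Dlgap1 (−0.11 ± 0.040, adjusted p = 0.257). Gria3 ran from 9101 to 13123 normalized counts in the 10 HT-labelled and from 10738 to 14339 in the 10 WT-labelled vehicle libraries, so the groups overlapped widely. An unadjusted p under 0.05 was reached by 8 members, all lower (18.6%, beside 10.6% of all genes, or 5.76% counting lower genes alone).

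In fluoxetine libraries, where 143 genes (0.849%) were called, the members' median genotype difference was −0.064 with 30 of 43 below 0. An unadjusted p under 0.05 was reached by 9 members (20.9%, 8 lower and 1 higher), beside 14.7% of all genes. Dlg3 came closest, at −0.094 ± 0.028 (limma adjusted p = 0.0868), from 7065 to 7621 normalized counts in HT-labelled and from 7186 to 8290.4 in WT-labelled libraries. Shank2 (−0.17 ± 0.057) and Dlg4 (−0.17 ± 0.058) followed with limma adjusted p-values of 0.119 and 0.139. In lithium libraries, where 45 genes (0.267%) were called, the median was −0.042 with 35 of 43 below 0, but −0.010 with excitatory neuron markers as a covariate, and no member reached an unadjusted p of 0.05, beside 10.1% of all genes. The leading members there were Gria4 (−0.079 ± 0.040), Cacng3 (−0.14 ± 0.075) and Nlgn3 (−0.062 ± 0.037), with limma adjusted p-values from 0.509 to 0.588.

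The levels of most members moved with the markers of tissue composition from library to library. Across the 59 libraries 38 of 43 members followed the mean log2 level of the olfactory bulb markers (Cdhr1, Tbx21, Eomes, Doc2g and Sp8), 28 negatively and 10 positively, and 38 followed the excitatory neuron markers, 29 positively and 9 negatively. Each of these passed an adjusted p of 0.05 for both Pearson's r and Spearman's rho, from 100000 permutations and adjusted over 172 relations (43 genes and 4 marker lists). As a description with no test, Pearson's r was past 0.5 in size for 72.1% of members and 24.0% of all genes with bulb markers, and for 83.7% and 32.0% with excitatory neuron markers. The strongest positive relation with bulb markers was that of Grm4 (r = 0.845, rho = 0.875) and the strongest negative that of Grik4, a high-affinity kainate receptor gene (r = −0.807, rho = −0.822). Both had a permutation p of 1e-05, the smallest that could be reached. When the 2 libraries most distant in bulb markers were left out r was 0.843 and −0.803, and within groups it was 0.881 and −0.826.

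**Figure D4:**
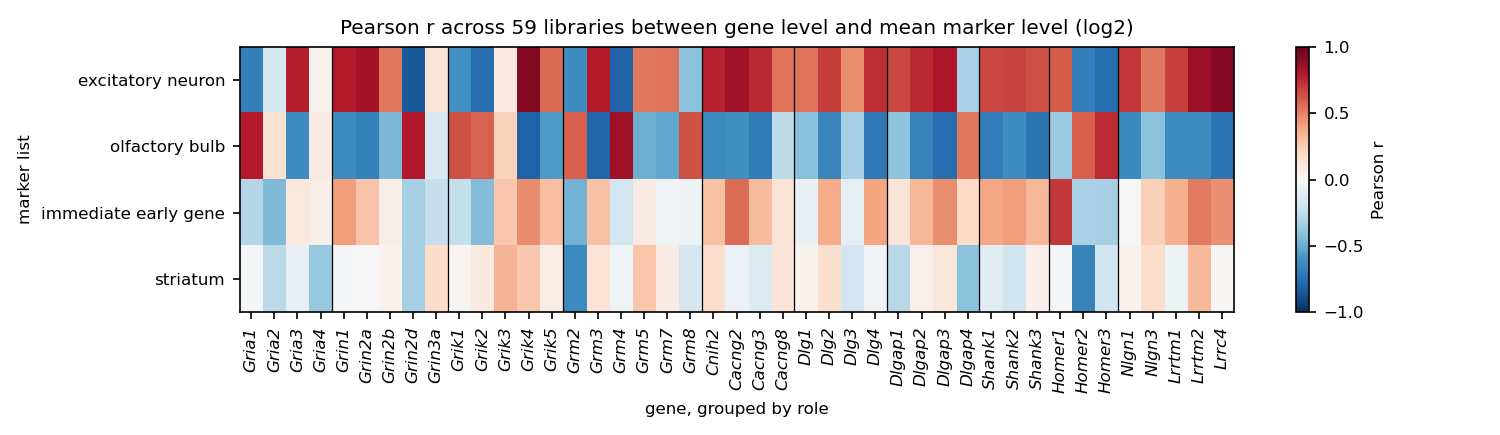
Pearson correlation across 59 libraries between the log2 level of each of the 43 genes and the mean log2 level of 4 marker lists. Red is positive and blue negative; most scaffold and auxiliary genes are red for excitatory neuron markers and blue for olfactory bulb markers, while genes such as Gria1, Grin2d, Grm2, Grm4 and Homer3 show the reverse.

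With excitatory neuron markers Grik4 had r = 0.921 and Lrrc4 r = 0.911, and Grin2d had r = −0.843, again at the smallest permutation p of 1e-05. Gria1, the gene of the subunit GluA1, followed bulb markers positively (r = 0.795, rho = 0.819) where Gria3 followed them negatively (r = −0.632, rho = −0.586), both at a permutation p of 1e-05. The called members followed excitatory neuron markers with r from 0.468 for Dlg3 to 0.780 for Gria3 (rho from 0.339 to 0.637 over the 6, permutation p of at most 0.00852, adjusted p of at most 0.0159). Homer2, a scaffold gene, and Grm2 were the members that followed striatal markers most closely (r = −0.667 and −0.639, both at 1e-05). Genes that share libraries share their composition, so these relations are not independent of each other.

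The same markers leaned with genotype, though none of them was called. The 4 excitatory neuron markers all had estimates below 0 in HT-labelled libraries (median −0.096) and the 5 olfactory bulb markers all above 0 (median 0.291). The excitatory sum ran from 38492 to 67573 normalized counts in HT-labelled and from 47204 to 66320 in WT-labelled libraries, and the bulb sum from 402 to 16156 and from 268 to 10520. With the excitatory markers as a covariate, an alternative chosen after the data were seen, the difference of Gria3 was −0.082 (limma adjusted p = 0.00632), that of Nlgn3 −0.062 (0.0307), that of Dlg3 −0.044 (0.0353) and that of Cacng3 −0.092 (0.0305). With bulb markers as a covariate the difference of Gria3 was −0.11 and 14 members were called (32.6%, beside 11.1% of all genes), 12 lower and 2 higher.

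A DNA sequence that could be read for called members was the promoter, shown because CHD8 is known to bind near start sites. RefSeq gives a window of 250 bases before a start site for 30 of the 43 members in GRCm38.p6, and of these 16 hold no base of a GENCODE exon. Gria3 and Nlgn3 have none in the table, and that of Cacng3 lies in an annotated exon. Those of 3 called members follow, 5′ to 3′ on the plus strand, with CpG dinucleotides in capitals. They lie at chrX:100774245-100774494 for Dlg3, at a start 6773 bases inside the gene, at chr17:69968823-69969072 for Dlgap1 and at chr6:110645348-110645597 for Grm7. The Grm7 window ends inside the annotated gene, which starts at 110645581.
Dlg3: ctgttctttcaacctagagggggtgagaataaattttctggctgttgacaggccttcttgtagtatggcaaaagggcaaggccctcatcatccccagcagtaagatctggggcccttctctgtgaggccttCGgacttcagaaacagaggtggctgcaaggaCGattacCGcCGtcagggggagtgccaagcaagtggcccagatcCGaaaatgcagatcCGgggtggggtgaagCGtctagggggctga
Dlgap1: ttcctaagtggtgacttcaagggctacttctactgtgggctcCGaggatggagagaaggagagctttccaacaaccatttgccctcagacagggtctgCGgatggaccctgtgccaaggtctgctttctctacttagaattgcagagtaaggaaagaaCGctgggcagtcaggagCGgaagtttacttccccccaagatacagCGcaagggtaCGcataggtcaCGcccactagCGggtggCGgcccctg
Grm7: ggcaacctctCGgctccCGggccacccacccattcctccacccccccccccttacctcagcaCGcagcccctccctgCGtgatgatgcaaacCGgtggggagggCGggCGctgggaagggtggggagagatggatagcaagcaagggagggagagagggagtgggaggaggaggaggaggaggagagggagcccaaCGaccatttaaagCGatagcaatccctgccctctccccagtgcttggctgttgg

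These 3 windows held 7, 9 and 9 CpG dinucleotides, and the last held 1 GC box. Over the 30 members with a window the median was 10 CpG and 62.2% G and C, beside 6 CpG and 52.4% over all 32817 windows. Motifs were searched on both strands, and a base shared by overlapping motifs was counted for each. The GC box GGGCGG was in 43.3% of member windows and 32.7% of all windows, the NRF1 motif (GCGC, then A and any base, then GCGC) in 3.33 and 3.73%, the cyclic AMP response element TGACGTCA in 0 and 1.55%, and TATAAA in 0 and 12.4%. A match is a run of letters, not a binding site.

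Fluoxetine was compared with vehicle over genotype and sex, and none of the 43 members was called. Over all genes 11 (0.0653% of those tested) were called by limma, and leaving out 1 library moved that number to between 4 and 74. The members' median was 0.014 with 6 at an unadjusted p under 0.05 (14.0%, beside 11.9% of all genes). Grik5, a kainate receptor gene of the high-affinity class, ran from 6811 to 8666 normalized counts (median 7761) on fluoxetine and from 6655.5 to 9145 (median 7332) on vehicle, a difference of 0.074 ± 0.028 (limma adjusted p = 0.286). Gria2, the gene of the subunit that makes AMPA receptors impermeable to calcium, ran from 22089 to 29156 (median 26086) and from 24747 to 31089 (median 27578), a difference of −0.070 ± 0.028 (limma adjusted p = 0.318). In both genes the 2 treatments overlapped over most of their range.

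The other 4 were Grik4 (0.17 ± 0.076), Grik2 (−0.090 ± 0.042), Shank3 (0.11 ± 0.050) and Grin1 (0.057 ± 0.028), with limma adjusted p-values from 0.376 to 0.416. Grik2 encodes the most widely used kainate receptor subunit, and Shank3 a scaffold of the postsynaptic density that is linked to autism. For 42 of 43 members the 95% interval lay within 20% of no change, Grik4 being the exception with an upper bound of 25.0%. In HT-labelled libraries alone no gene was called and 857 (5.09%) had an unadjusted p under 0.05, no member among them. The smallest p-values were those of Homer2 (−0.11 ± 0.070), Grin2b, an NMDA receptor gene (0.092 ± 0.060), and Grik3, a kainate receptor gene (0.090 ± 0.063), all with a limma adjusted p of 0.906.

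In WT-labelled libraries 32 genes (0.190%) were called after fluoxetine and no member. Grik5 (0.12 ± 0.038), Gria2 (−0.12 ± 0.039) and Shank3 (0.20 ± 0.070) had limma adjusted p-values of 0.130, 0.140 and 0.190. The test of the difference between genotypes, given below, called no gene. The 5 olfactory bulb markers all lay below 0 after fluoxetine (median −0.637) and the 4 excitatory neuron markers above 0 (median 0.11), none called. With bulb markers as a covariate the 3 differences were 0.10, −0.12 and 0.15, and with excitatory neuron markers 0.10, −0.12 and 0.16, none called. None of these markers was at 0 in any library.

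**Figure D5:**
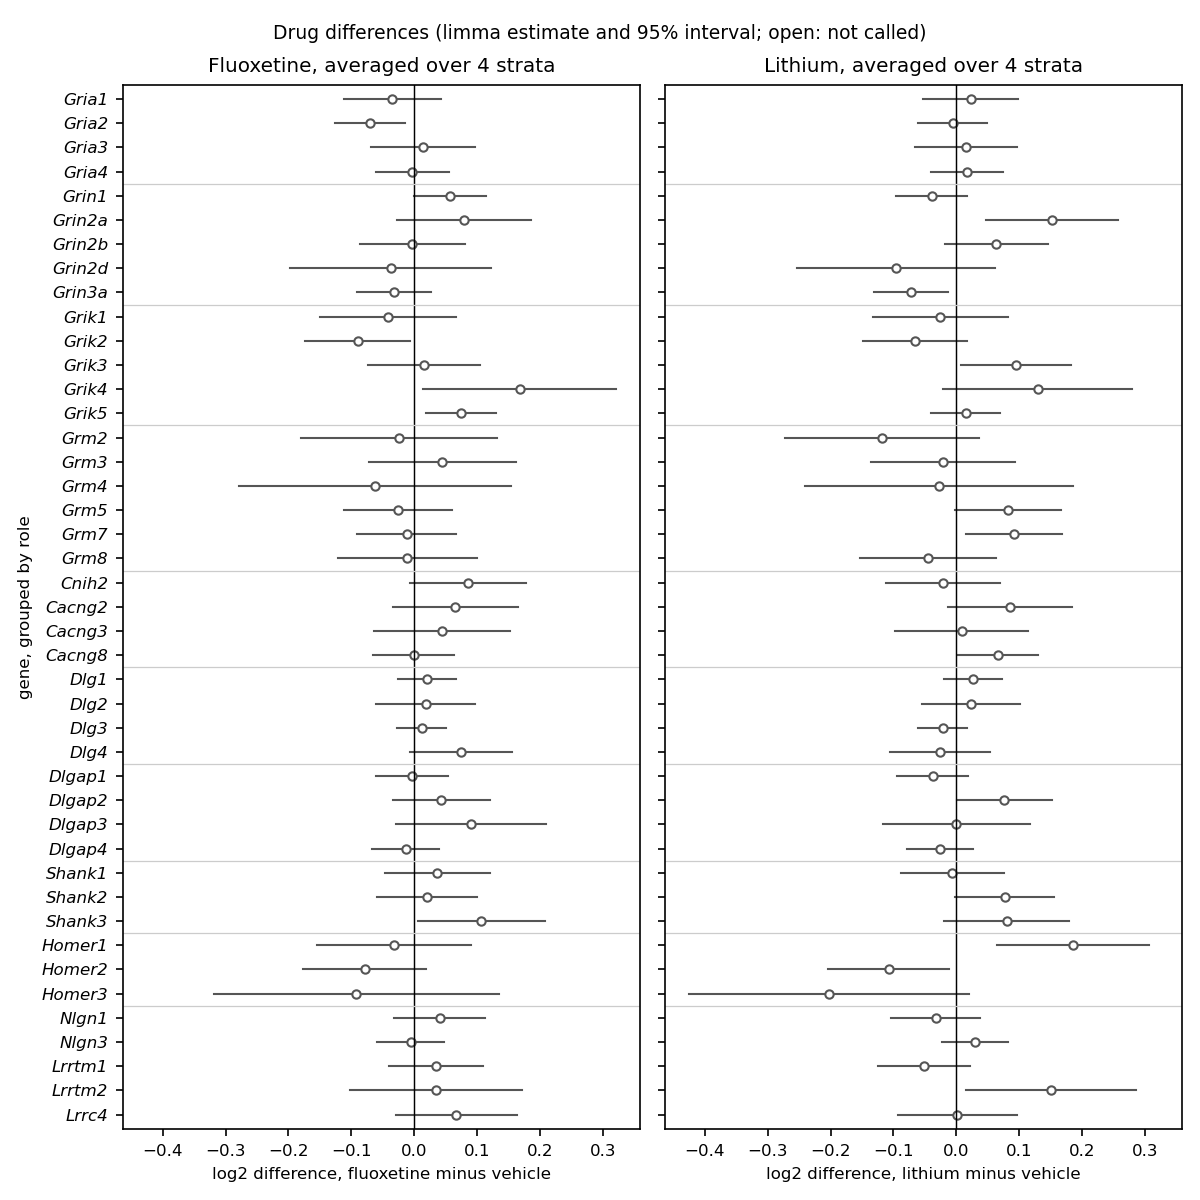
Difference between drug and vehicle libraries for each of the 43 genes, averaged over genotype and sex, on the log2 scale, for fluoxetine on the left and lithium on the right. Points are limma estimates and bars 95% intervals; all points are open because no member passed an adjusted p of 0.05, and Homer1 and Grin2a stand farthest above 0 for their error after lithium.

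Lithium libraries were compared with the same vehicle libraries, and 742 genes (4.41%, 471 higher and 271 lower) but no member differed at a limma adjusted p under 0.05. The members' median was 0.0017, and 9 of them (20.9%, 7 higher and 2 lower) had an unadjusted p under 0.05, beside 18.7% of all genes. Homer1 came closest. It ran from 7360 to 12650.4 normalized counts (median 9830.2) in the 20 lithium libraries and from 6555 to 12155 (median 8579) in the 20 vehicle libraries, which overlapped widely. The difference was 0.19 ± 0.060 (limma adjusted p = 0.0629), with positive estimates in 4 of 4 strata, from 0.11 in HT-labelled males to 0.25 in HT-labelled females.

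Homer1 followed immediate early genes across the 59 libraries (r = 0.706, rho = 0.645, permutation p = 1e-05 for both), and r was 0.645 when the 2 most distant libraries were left out and 0.712 within groups. Immediate early genes are switched on by neuronal activity. Of the 8 immediate early genes 7 had positive estimates after lithium (median 0.195), none called. With their mean log2 level as a covariate the difference of Homer1 was 0.13 (limma adjusted p = 0.0606). Homer1 was called when HT-labelled lithium female 5, vehicle female 1 or vehicle male 1 or 2 was left out, or WT-labelled lithium female 5, lithium male 2 or vehicle male 1. It was also called with bulb or excitatory neuron markers as a covariate, with a limma adjusted p between 0.0130 and 0.115 over the alternatives.

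Grin2a encodes GluN2A, the NMDA receptor subunit that increases as the cortex matures. It lay between 7176 and 9489 normalized counts (median 8452) with lithium and between 5527 and 8719 (median 7744) with vehicle, a difference of 0.15 ± 0.052 (limma adjusted p = 0.0801). Its lowest values were in vehicle libraries, and its 4 strata all had positive estimates, from 0.094 to 0.22. It was called with bulb markers (0.13, limma adjusted p = 0.0187) or excitatory neuron markers (0.10, adjusted p = 0.0123) as a covariate, and without HT-labelled lithium female 4, vehicle female 2 or vehicle male 2 or WT-labelled lithium male 2. The remaining members at an unadjusted p under 0.05 were Grin3a (−0.072 ± 0.029), a gene of a juvenile NMDA receptor subunit, Grm7 (0.092 ± 0.038), Homer2 (−0.11 ± 0.048), Lrrtm2 (0.15 ± 0.067), which encodes a neurexin ligand, Grik3 (0.095 ± 0.043), Cacng8 (0.066 ± 0.032) and Dlgap2 (0.076 ± 0.038). Their limma adjusted p-values ran from 0.148 to 0.265.

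In HT-labelled libraries, where 40 genes (0.238%) were called between lithium and vehicle, Grm7 led the members with 0.16 ± 0.054 (limma adjusted p = 0.222). The 10 vehicle libraries held 1562 to 2169 normalized counts of Grm7 (median 1755) and the 10 lithium libraries 1643.4 to 2196 (median 2004). Grin2a (0.20 ± 0.074) and Cacng8 (0.096 ± 0.045) followed, with limma adjusted p-values of 0.284 and 0.448. In WT-labelled libraries, where 36 genes (0.214%) were called, Grin3a (−0.095 ± 0.041), Homer1 (0.19 ± 0.085) and Homer2 (−0.14 ± 0.068) led, with limma adjusted p-values from 0.338 to 0.424. Grm7 was at 2033 in the median of WT-labelled libraries on vehicle and again at 2033 on lithium.

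Whether a drug acted differently on the members by genotype was tested as an interaction, and no gene was called for either drug. An unadjusted p under 0.05 was reached by 6.18% of all genes for fluoxetine and by 2.29% for lithium, in each case with 1 member. That member was Grin2b for fluoxetine (0.19 ± 0.083, limma adjusted p = 0.735), followed by Gria2 (0.10 ± 0.056) and Dlg4 (−0.15 ± 0.080). For lithium it was Grm8 (−0.22 ± 0.11, limma adjusted p = 0.9999), followed by Grm7 (0.14 ± 0.077) and Grin2b (0.11 ± 0.082). These intervals were wide: 27 of 43 members for fluoxetine and 33 for lithium had a 95% interval within 20% of no change.

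Genotype by sex gave no called gene, 3.15% of genes at an unadjusted p under 0.05 and no member among them, with Grin3a (−0.087 ± 0.048), Dlg1 (0.057 ± 0.037) and Cacng3 (0.11 ± 0.087) leading. Between females and males 26 genes (0.154%) were called and no member. Homer1 (−0.092 ± 0.050, limma adjusted p = 0.665), Dlgap4 (−0.037 ± 0.021) and Grik5 (0.036 ± 0.022) had the smallest p-values. The 95% intervals of all 43 members lay within 20% of no difference between the sexes, with the widest bounds at −16.4% for Grm4 and 13.4% for Grik4.

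A further 50 genes of the glutamatergic postsynapse were listed beside the members, and 48 were tested. Grin3b and Grm6 fell under the minimum mean. By genotype 1 of the 48 fell and 2 rose, a smaller share than the 7.98% called among all genes tested. Their median was −0.031, with 34 below 0. Epha4, an ephrin receptor gene, fell by 0.16 ± 0.047 on the log2 scale (limma adjusted p = 0.0225). Grin2c, an NMDA receptor gene prominent in cerebellum and astrocytes, rose by 0.12 ± 0.037 (adjusted p = 0.0327) and Efnb3, an ephrin gene, by 0.17 ± 0.057 (adjusted p = 0.0498), both by limma. Leaving out 1 library ended the call of Efnb3 in 42 of 59 fits and that of Grin2c in 6.

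After lithium 2 of the 48 rose and none fell, about the share called among all genes tested (4.41%). Baiap2, which encodes the spine protein IRSp53, a partner of PSD-95 and SHANK proteins, rose by 0.14 ± 0.033 (limma adjusted p = 0.00883). Nptx2, the gene of a neuronal pentraxin that gathers AMPA receptors and is induced by activity, rose by 0.19 ± 0.047 (limma adjusted p = 0.0108). After fluoxetine none of the 48 was called, and 30 lay above 0 and 18 below.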

How the data were processed

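The deposited table held 1 column for each of 59 libraries. Its values were treated as a normalized signal, taken from the values to be counts that the authors divided by a factor per library; they are not whole numbers, so no count test was run. The build GRCm38 and the tools DESeq2 1.19.11, R 3.6.0 and Salmon 0.11.2 are named per the submitters' processing notes, with no role or order. The members and the gene lists were chosen with earlier results of these data known.

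Genes with a mean of at least 10 (16839) entered a model in limma 3.58.1, under R 4.3.3 with statmod 1.5.0, of log2(value + 1), a scale that understates changes of low genes. A mean was fitted for each of 12 groups, with trend and robust shrinkage, and p-values were adjusted by Benjamini-Hochberg over all 16839 genes, with calls at 0.05. Errors after ± are SE. The fit was tested on simulated data with independent normal errors around each gene's mean, which leave out the shared composition of real libraries. Fluoxetine and lithium comparisons share the vehicle libraries. Named differences were, in the averaged genotype, fluoxetine and lithium comparisons, all members called or at an unadjusted p under 0.05, at most 12 by p; elsewhere the 3 smallest p; and pathway genes called in the averaged comparisons. Salmon divides reads between similar transcripts. Alternatives were a pseudocount of 0.5, no filter on low values, no trend or robust shrinkage, scaling by TMM factors, the replicate number as a block, the groups of a contrast alone, marker levels as covariates, omission of 8 libraries rich in striatal markers, and each library left out in turn. Pairs of libraries from different groups had a median correlation of 0.048 where they shared a replicate number, with 123 of 319 above 0.1. Where the numbers differed it was −0.019, with 307 of 1276 above 0.1. The numbers were not taken to pair libraries in the main fit, and what libraries of the same number share was not tested. Promoter windows came from RefSeq. One marker gene is not reported here and entered no marker level. Symbols were matched for 51285 identifiers and not for 171.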

Additional observations from a re-analysis of the deposited data

Results flagged for a closer look

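Among 10 genes in 12 groups (120 sets of 4 or 5 libraries), 3 held a library far from the others by Dixon's criterion, which chance meets in about 1 set in 20. Dlg3 stood at 8163.9 normalized counts in replicate 3 of the WT-labelled lithium females, where the nearest library was at 7550.0. Dlg3 was also low in the WT-labelled lithium male of replicate 2, at 6957.5 with the nearest library at 7406.5, and this library had the highest striatal markers of all 59. Homer1 was low in replicate 5 of the WT-labelled lithium females, at 7360.0 with the nearest at 9773.2.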

How the results depend on the processing

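Of 4842 alternative values for 97 results, 4546 kept their direction and side of the threshold, for counts stayed within 1.5 times, or for medians moved by less than 0.0448, the SD of the members' mean log2 level within groups. No named difference changed sign. The members' median did in 66 of 638 values, in 7 of 14 comparisons, where it was at most 0.01945 in size. No median moved past the limit of 0.0448, which was wider than every median that changed sign. Medians could therefore hardly fail, and their share of the 4546 tells little about how steady they were. The 4 medians of HT-labelled against WT-labelled libraries kept their sign. The members called by genotype, 6 in the report, were 3 without a filter on low values (877 genes called of 1344 with it), 12 with the replicate number as a block (1828 genes), 14 with olfactory bulb markers as a covariate (1870 genes), and 12 with bulb and striatal markers together (1772 genes). They were 4 to 11 when 1 library was left out, being 10 or 11 without HT-labelled lithium female 1, vehicle females 1 and 2 or vehicle male 1, or WT-labelled vehicle male 5. For genotype within single treatments and for lithium in HT-labelled libraries, the counts below stand without the number of all genes called. They therefore do not show whether members were called more often than other genes. Within vehicle, where none was called, bulb markers gave 2, excitatory markers 1 and both bulb and striatal markers 2. Within fluoxetine the block gave 1, bulb markers 1, excitatory markers 4, and the omission of 1 library 0 to 1. For averaged lithium, where none was called, the block gave 1, bulb markers 2, excitatory markers 5, bulb and striatal markers 3, and the omission of 1 library 0 to 2; for lithium in HT-labelled libraries excitatory markers gave 2 and bulb and striatal markers 1.

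The 742 genes called for lithium became 483 without the filter, 1233 with bulb, 1516 with excitatory and 1303 with bulb and striatal markers. The 11 genes called for fluoxetine became 4 without the filter, 7 without trend and robust shrinkage, 41 with the replicate block, 1 without the libraries rich in striatal markers, 41 with bulb, 18 with striatal, 91 with immediate early gene, 39 with excitatory and 36 with bulb and striatal markers, and 4 with the groups of the contrast alone; with 1 library left out they were 4 to 74. The cause of these shifts was not tested. Covariates for excitatory neurons and for bulb and striatum together were chosen after the data were seen. The depth of an estimated 25.8 to 36.9 M reads left a lowest member mean of 218 normalized counts, and counting error was not set against the spread between libraries; the median half-width of a 95% interval was 0.068 for averaged genotype and 0.16 for the lithium interaction.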
